A study of Mus musculus with 30 samples.

Results

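Most of the genes described here encode subunits of respiratory complexes II, III, IV and V that come from nuclear DNA. Cycs encodes cytochrome c, which carries electrons between complexes III and IV. The genes were chosen by name as the protein-coding mouse genes Sdha, Sdhb, Sdhc, Sdhd, Cyc1 and Cycs and those whose symbols start with Uqcr, Cox4, Cox5, Cox6, Cox7, Cox8 or Atp5 in a GRCm38 annotation. Each was counted under the complex that its symbol points to, whether or not it encodes a subunit. That gave 50 genes of 43629 in the count files. Of these, 49 had a row in the files, and a second gene entry named Atp5o was not analysed here.

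RNA-seq was done on hearts of wild type C57BL/6J mice at 2, 4 and 7 days after myocardial infarction (MI) by coronary artery ligation, and on hearts of mice that had the same operation with no ligation (sham), also at 2, 4 and 7 days. Each of the 6 groups has 5 libraries, 30 in all. The labels do not say which part of the heart was taken or whether libraries come from separate animals, so p-values reflect only how far these libraries scatter, which may be technical. Libraries held 7841930 to 14070017 counts in genes, and the 49 genes together took 2.08 to 4.15% of them.

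In the inner mitochondrial membrane, complex II takes electrons from succinate, complex III passes them to cytochrome c, complex IV hands them to oxygen, and complex V uses the proton gradient built by complexes III and IV, with complex I, to make ATP. Heart muscle cells are packed with mitochondria and draw most of their ATP from this chain. Subunits encoded in mitochondrial DNA are not among the genes described.

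Many of these mRNAs were lower in MI hearts at day 2, and most were lower at days 4 and 7, by a wider margin. Summed over all the genes, they reached 31711 ± 1302 CPM (counts scaled to a library total of 1e6) in MI hearts and 37007 ± 2098 CPM in sham hearts at day 2 (SD, n = 5 each). At day 4 the sums were 24773 ± 2485 CPM in MI hearts and 37124 ± 3044 CPM in sham hearts, and at day 7 they were 23981 ± 2617 and 36854 ± 2877 CPM in MI and sham hearts. MI hearts thus held 85.7%, 66.7% and 65.1% of the sham level at days 2, 4 and 7. In bulk RNA, fewer cells of a type and less RNA per cell cannot be told apart.

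Of the 47 genes with enough counts to test on each day, 22 were lower in MI hearts at day 2, 39 at day 4 and 33 at day 7, at an adjusted p under 0.05 in edgeR's quasi-likelihood test. CPM values and overlaps of libraries rest on raw library totals. The edgeR log2 fold changes also use scaling factors between libraries (TMM), so they can differ from CPM in size and direction. Over all genes tested, 22.2%, 25.2% and 26.6% were called lower at days 2, 4 and 7, against 46.8%, 83.0% and 70.2% of these 47. The median log2 fold change of the 47 was -0.25, -0.64 and -0.66, while that of all genes tested was -0.01, 0.01 and 0.01. Only Cox6a1 was higher, at day 2, where 24.1% of all genes were called higher, and the shares were 27.5% and 28.4% at days 4 and 7. No gene of the 47 was called higher at day 4 or day 7 by edgeR in the fits by day or by DESeq2, and at an unadjusted p under 0.05 there was 1 at day 4 and 0 at day 7. With edgeR fitted to all 30 libraries, or with no filter on low counts, 1 gene was called higher at day 4. All 5 MI libraries lay below all 5 sham libraries for 10, 27 and 20 of the 47 genes at days 2, 4 and 7, which is 21.3%, 57.4% and 42.6%, against 10.3%, 11.1% and 12.2% of all genes tested. In either direction, 46.3%, 52.7% and 55.0% of all genes were called at days 2, 4 and 7. The day 2 count of 23 called genes became 15 without sham library 3, without sham library 5 or without MI library 4.

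In all, 20 genes were lower at all 3 days, 13 at days 4 and 7 but not at day 2, and 6 at day 4 only, which were Atp5l, Cox6b2, Cox7b, Cox7c, Uqcr10 and Uqcrh. Cox4i2 and Cox7a2l were called lower at day 2 and not at day 4. The 6 genes called lower at none of the days were Atp5e, Atp5g2, Atp5mpl, Cox6a1, Cox7a2 and Cox8a. The remaining pair, Cox7b2 and Cox8c, known in mammals as testis isoforms, had too few counts to test. Cox8c had 0 counts in all 30 libraries, which allows up to 0.213 to 0.383 CPM by library (3 counts, counting error only), and Cox7b2 had 0 to 0.603 CPM. Among the 47, log2 fold change fell with transcript length (Spearman rank correlations -0.55, -0.49 and -0.57 at days 2, 4 and 7). Length was that of the longest transcript annotated as principal, such as 4715 bases for Atp5g1, which need not be the form expressed. Over all coding genes tested the correlations were -0.15, -0.02 and 0.01. The 19 genes with transcripts under 700 bases had medians of -0.12, -0.54 and -0.45, against -0.29, -0.69 and -0.73 for the other 28. Correlations with mean count were -0.39, -0.42 and -0.60, and the part of length or count in these values was not tested.

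**Figure D1:**
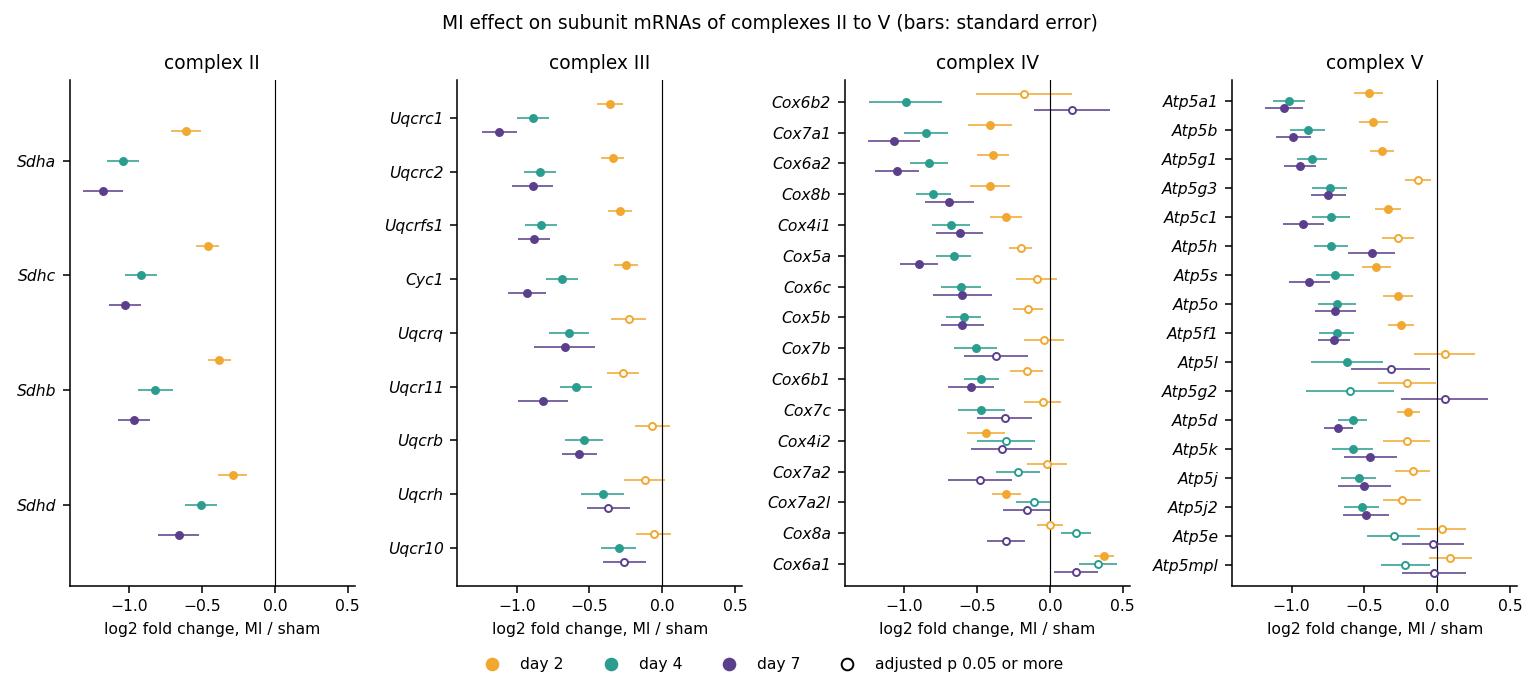
Log2 fold change of MI over sham hearts for each tested gene counted under complexes II to V, with standard errors as bars. Filled points have an adjusted p under 0.05. Nearly all points lie left of 0, those of day 2 mostly nearest to it, and Cox6a1 is the one gene with a filled point on the right, at day 2.

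Complex II, succinate dehydrogenase, also works in the citric acid cycle, and all 4 of its genes were lower in MI hearts on every day, with median log2 fold changes of -0.42 and -0.87 at days 2 and 4 and values between -1.18 and -0.66 at day 7. Sdha encodes the flavoprotein that oxidises succinate. Its level was 967, 1121, 1057, 1233 and 1155 CPM in the MI hearts of day 2, against 1639, 1781, 1355, 1722 and 1424 CPM in sham hearts. At day 4 MI hearts had 881, 1235, 1136, 951 and 1046 CPM, against 1927, 1873, 1752, 1989 and 2024 CPM in sham hearts. At day 7 Sdha stood at 611, 1005, 812, 903 and 965 CPM in MI hearts, against 1763, 1451, 1521, 1814 and 1898 CPM in sham hearts. The groups did not overlap on any day, and the highest MI library of days 4 and 7 stayed well under the lowest sham library. Its log2 fold changes were -0.61 (edgeR adjusted p = 0.000245, SE 0.10) at day 2, -1.04 (edgeR adjusted p = 3.4e-06, SE 0.11) at day 4 and -1.18 (edgeR adjusted p = 2.25e-05, SE 0.14) at day 7, the lowest among the 47 genes on each day.

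Sdhb, the iron-sulphur subunit that takes electrons from Sdha, had 726, 777, 751, 758 and 857 CPM in day 2 MI hearts, against 882, 937, 1023, 939.7 and 937 CPM in sham hearts. At day 4 its levels were 548, 654, 559.8, 662 and 506 CPM in MI hearts, against 902, 1025, 761, 965 and 927 CPM in sham hearts. At day 7 they were 461, 522, 539.6, 477 and 619.6 CPM in MI hearts, against 879.8, 796, 981, 920.4 and 896 CPM in sham hearts. Every MI library was below every sham library of its day. Sdhb fell on each day, with log2 fold changes of -0.38 (edgeR adjusted p = 0.00199, SE 0.08), -0.82 (edgeR adjusted p = 4.44e-05, SE 0.12) and -0.97 (edgeR adjusted p = 1.5e-05, SE 0.11) at days 2, 4 and 7.

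Sdhc and Sdhd encode the membrane anchors, where ubiquinone is reduced. Sdhc had 516, 595, 520.3, 541 and 598 CPM in MI hearts at day 2, against 646, 719, 765, 729.8 and 719.5 CPM in sham hearts, with no overlap. Its log2 fold change was -0.46 (edgeR adjusted p = 0.000399, SE 0.08) at day 2, -0.92 (edgeR adjusted p = 9.8e-06, SE 0.11) at day 4 and -1.03 (edgeR adjusted p = 8e-06, SE 0.11) at day 7. Sdhd differed least of the 4. It had 602, 639, 597, 542 and 659.6 CPM in MI hearts of day 2, against 642, 588, 827, 653 and 763 CPM in sham hearts. At day 4 it had 479, 519.8, 486, 588 and 417 CPM in MI hearts, against 584, 711, 571, 663 and 597 CPM in sham hearts. At day 7 it had 471, 428, 323, 407 and 552 CPM in MI hearts, against 594, 605, 691, 594 and 539.7 CPM in sham hearts. The groups overlapped on each day, by 1 MI library at days 4 and 7. The log2 fold changes of Sdhd were -0.29 (edgeR adjusted p = 0.0329, SE 0.10), -0.51 (edgeR adjusted p = 0.0017, SE 0.11) and -0.66 (edgeR adjusted p = 0.000985, SE 0.14), and the day 2 call was lost without any of 5 of the 10 libraries, with values between -0.35 and -0.21.

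**Figure D2:**
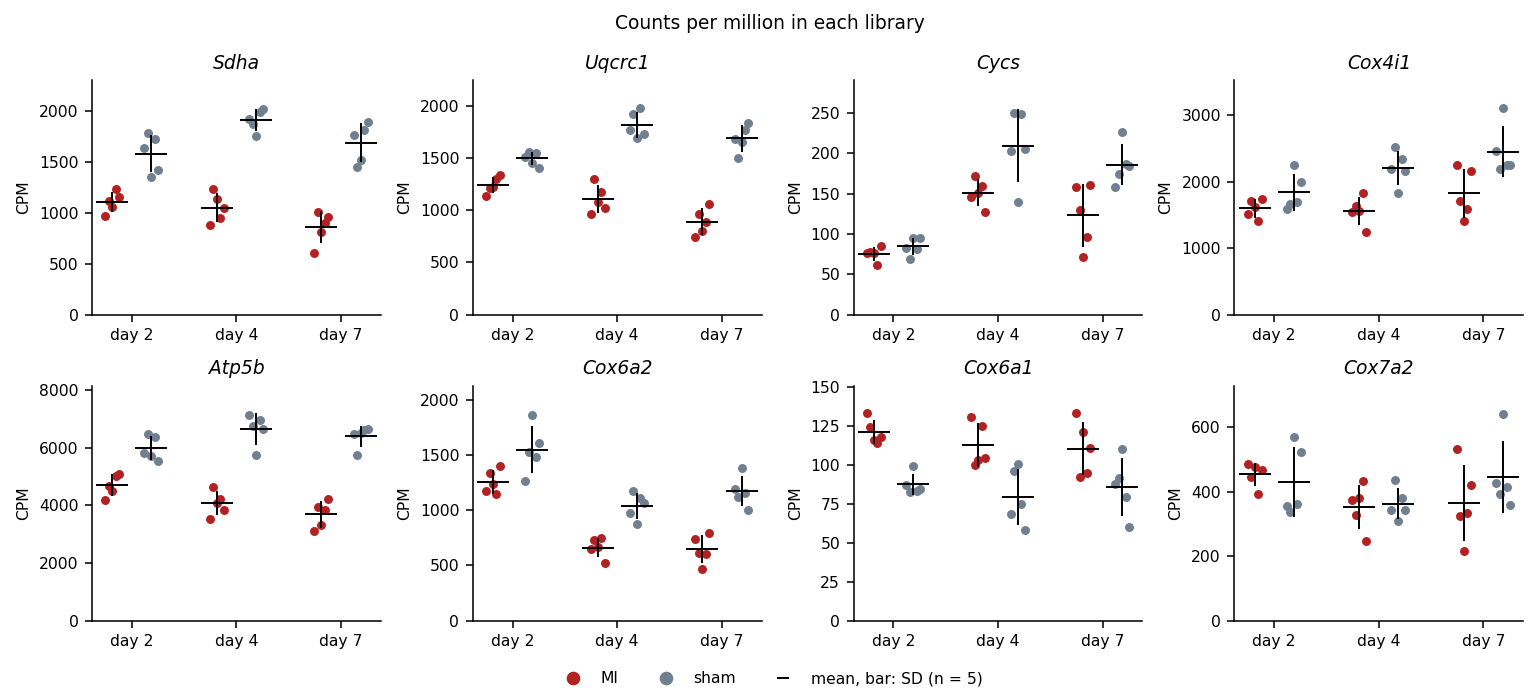
CPM of 8 genes in each library, with MI left of sham at days 2, 4 and 7; points are libraries, lines the mean and bars the SD of 5. Sdha, Uqcrc1 and Atp5b separate MI from sham on every day, Cox6a1 is higher in all MI libraries of day 2 and Cox7a2 overlaps on every day.

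In complex III, which pumps protons while it reduces cytochrome c, 4, 9 and 7 of 9 genes were lower at days 2, 4 and 7, with medians of -0.25, -0.64 and -0.82. Uqcrc1 encodes a core protein of the complex on its matrix side. It had 1137, 1211, 1219.6, 1299.6 and 1340.1 CPM in MI hearts of day 2, against 1509, 1560.2, 1457, 1549.6 and 1409 CPM in sham hearts. At day 4 the MI libraries held 969, 1300.3, 1079, 1174 and 1018 CPM, against 1772, 1919.8, 1689, 1979 and 1734 CPM in sham libraries. At day 7 they held 743, 964, 799, 890.4 and 1064 CPM, against 1679, 1502, 1657, 1771 and 1832 CPM in sham libraries. No MI library reached a sham library on any day. The log2 fold changes were -0.36 (edgeR adjusted p = 0.00302, SE 0.09), -0.89 (edgeR adjusted p = 1.3e-05, SE 0.11) and -1.12 (edgeR adjusted p = 1.07e-05, SE 0.12).

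Uqcrfs1, the Rieske iron-sulphur protein that moves electrons from ubiquinol, had 831, 847, 898, 854 and 905 CPM in MI hearts at day 2, against 997, 946, 1047, 986 and 1012 CPM in sham hearts. At day 4 the values were 607, 700.1, 672, 677 and 569 CPM in MI hearts, against 1009.7, 1127, 875, 1069 and 981 CPM in sham hearts. At day 7 they were 563, 600.4, 523, 549.5 and 735 CPM in MI hearts, against 932, 893, 1010.2, 989 and 956 CPM in sham hearts. The groups were apart on all 3 days, with log2 fold changes of -0.29 (edgeR adjusted p = 0.00677, SE 0.08), -0.83 (edgeR adjusted p = 1.81e-05, SE 0.11) and -0.88 (edgeR adjusted p = 3.1e-05, SE 0.11). Cyc1, or cytochrome c1, is the haem subunit that hands electrons to cytochrome c. It had 849, 879, 902, 849.7 and 976 CPM in MI hearts of day 2, against 988, 951, 1029, 967 and 1032 CPM in sham hearts, and 1 MI library lay within the sham range. At day 4 Cyc1 had 794, 918, 828, 875 and 727 CPM in MI hearts, against 1237, 1262, 1016, 1285 and 1109.96 CPM in sham hearts. At day 7 Cyc1 had 647, 725, 517, 639.98 and 851 CPM in MI hearts, against 1095, 1014, 1215, 1165 and 1143 CPM in sham hearts. The groups of days 4 and 7 did not overlap, and the log2 fold changes were -0.25 (edgeR adjusted p = 0.0202, SE 0.08), -0.69 (edgeR adjusted p = 0.000111, SE 0.11) and -0.93 (edgeR adjusted p = 6.47e-05, SE 0.13). The smaller subunits Uqcr10 and Uqcrh, the hinge protein, were called lower at day 4 and not on the other days, with day 4 log2 fold changes of -0.30 (edgeR adjusted p = 0.0469, SE 0.12) and -0.41 (edgeR adjusted p = 0.0328, SE 0.15).

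Cycs encodes cytochrome c of somatic tissues, which also activates caspases when it leaves mitochondria. In MI hearts of day 2 it had 76.9, 78.1, 76.5, 61.3 and 84.7 CPM, against 83.1, 68.8, 94.8, 82.0 and 94.7 CPM in sham hearts, and most MI libraries lay in the sham range. At day 4 MI hearts had 146, 172, 151, 159.7 and 127 CPM, against 203, 250.3, 139.8, 249 and 205 CPM in sham hearts. At day 7 MI hearts had 158, 129.97, 71.6, 95.8 and 160.5 CPM, against 158, 174, 227, 187 and 184 CPM in sham hearts. Sham library 3 lay inside the MI range at day 4, and MI libraries 1 and 5 reached the lowest sham library at day 7. The log2 fold changes were -0.26 (edgeR adjusted p = 0.0519, SE 0.10), -0.65 (edgeR adjusted p = 0.00298, SE 0.16) and -0.79 (edgeR adjusted p = 0.00475, SE 0.20), of which the day 2 value was not called. All sham libraries of day 2 sat below all sham libraries of the later days, and so did those of MI hearts apart from MI library 3 of day 7. Day 2 libraries carry another run identifier in the labels than those of days 4 and 7, so for a level, day and run cannot be told apart; MI and sham hearts of a day share a run identifier.

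Complex IV, cytochrome c oxidase, has tissue isoforms of several subunits, and its genes did not all move alike. Of 16 tested, 6, 11 and 8 were lower at days 2, 4 and 7, and 1 was higher at day 2, with medians of -0.17, -0.55 and -0.51. Cox4i1, the broadly expressed form of the largest nuclear subunit, had 1518, 1702, 1614, 1402 and 1741 CPM in MI hearts of day 2, against 1591, 1663, 2245, 1692 and 1998 CPM in sham hearts. At day 4 it had 1536, 1635, 1564, 1823 and 1236 CPM in MI hearts, against 2191, 2519, 1823, 2337 and 2153 CPM in sham hearts. At day 7 it had 2255, 1704, 1411, 1592 and 2161 CPM in MI hearts, against 2451, 2181, 3107, 2245 and 2246 CPM in sham hearts. A single MI library reached the sham range at days 4 and 7, and at day 2 only sham libraries 3 and 5 stood above all MI libraries. The log2 fold changes were -0.30 (edgeR adjusted p = 0.0374, SE 0.11), -0.68 (edgeR adjusted p = 0.000501, SE 0.13) and -0.62 (edgeR adjusted p = 0.00496, SE 0.16), and the call at day 2 was lost without any of 5 of the 10 libraries, with values between -0.35 and -0.21.

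Cox5a and Cox5b are subunits beside the catalytic core that are not known to have tissue isoforms in mammals. Cox5a had 712, 729.7, 734, 691 and 777 CPM in MI hearts of day 2, against 744, 762, 861, 766 and 790.3 CPM in sham hearts. At day 4 Cox5a had 452, 544, 492, 516 and 409 CPM in MI hearts, against 625, 766, 582, 711 and 679 CPM in sham hearts. At day 7 Cox5a had 428, 395, 324, 392 and 521 CPM in MI hearts, against 647, 618, 752, 665 and 665 CPM in sham hearts. Of the MI libraries of day 2, 4 lay below all sham libraries, and the groups were apart at days 4 and 7, with log2 fold changes of -0.20 (edgeR adjusted p = 0.0522, SE 0.08), -0.66 (edgeR adjusted p = 0.000238, SE 0.12) and -0.90 (edgeR adjusted p = 6.66e-05, SE 0.13). Cox5b had 121, 119, 118, 101 and 120.4 CPM in MI hearts of day 2, against 103, 112, 149.6, 111 and 129.7 CPM in sham hearts. At day 4 Cox5b had 55.0, 62.3, 54.3, 65.3 and 45.4 CPM in MI hearts, against 73.8, 83.3, 63.2, 79.9 and 73.7 CPM in sham hearts. At day 7 Cox5b had 74.8, 51.7, 52.4, 49.9 and 66.8 CPM in MI hearts, against 81.7, 70.3, 104, 70.8 and 64.7 CPM in sham hearts. The Cox5b groups overlapped on every day, and its log2 fold changes were -0.15 (edgeR adjusted p = 0.228, SE 0.10), -0.59 (edgeR adjusted p = 0.000646, SE 0.12) and -0.60 (edgeR adjusted p = 0.0043, SE 0.15).

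Cox6a1, the widely expressed form of subunit VIa, went the other way. It had 133, 124, 116, 114 and 118 CPM in MI hearts at day 2, against 87.1, 82.6, 99.5, 83.0 and 84.6 CPM in sham hearts. At day 4 it had 130.5, 100.03, 103, 125 and 104 CPM in MI hearts, against 68.6, 95.9, 100.3, 74.5 and 58.3 CPM in sham hearts. At day 7 it had 133, 92.4, 121, 94.6 and 111 CPM in MI hearts, against 87.4, 91.8, 110.1, 79.1 and 59.8 CPM in sham hearts. All 5 MI libraries of day 2 were above all sham libraries, as for 20.3% of all genes tested, and at days 4 and 7 the groups overlapped, 4 and 3 of 5 MI libraries being above all sham libraries. The log2 fold change was 0.37 (edgeR adjusted p = 0.000869, SE 0.07) at day 2, 0.33 (edgeR adjusted p = 0.0534, SE 0.13) at day 4 and 0.18 (edgeR adjusted p = 0.331, SE 0.15) at day 7.

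The muscle form of the same subunit, Cox6a2, is the one that heart and skeletal muscle make in quantity. It had 1175, 1337, 1237, 1148 and 1405 CPM in MI hearts of day 2, against 1270.1, 1526, 1863, 1482 and 1611 CPM in sham hearts. At day 4 MI hearts had 646, 731, 670.5, 745 and 519.8 CPM of Cox6a2, against 977, 1174, 876, 1112 and 1067 CPM in sham hearts. At day 7 MI hearts had 739, 616, 471, 606 and 798 CPM, against 1193, 1123, 1381, 1156 and 1005 CPM in sham hearts. The groups overlapped at day 2 and not at days 4 and 7, and Cox6a2 fell on each day, with log2 fold changes of -0.39 (edgeR adjusted p = 0.00775, SE 0.11), -0.83 (edgeR adjusted p = 7.2e-05, SE 0.13) and -1.05 (edgeR adjusted p = 5.6e-05, SE 0.15). Per kilobase of transcript, Cox6a2 averaged 975 CPM in MI hearts and 1531 CPM in sham hearts at day 4, and Cox6a1 averaged 197 and 139 CPM, so the muscle form stayed the more abundant.

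The ratio of both forms within a library needs no scaling between libraries. In bulk RNA this ratio, like those of the other pairs, can also move with the mix of cells, whose part was not tested. The log2 ratio of Cox6a2 to Cox6a1 counts was 3.14, 3.43, 3.42, 3.34 and 3.57 in the MI hearts of day 2, against 3.86, 4.21, 4.23, 4.16 and 4.25 in sham hearts. At day 4 the log2 ratio was 2.31, 2.87, 2.70, 2.58 and 2.32 in MI hearts, against 3.83, 3.61, 3.12, 3.90 and 4.19 in sham hearts. At day 7 it was 2.48, 2.74, 1.95, 2.68 and 2.84 in MI hearts, against 3.77, 3.61, 3.65, 3.87 and 4.07 in sham hearts. On each day every MI library was below every sham library. The differences in mean log2 ratio were -0.76 (exact permutation p = 0.00794, adjusted p = 0.0152) at day 2, -1.18 (exact permutation p = 0.00794, adjusted p = 0.0152) at day 4 and -1.26 (exact permutation p = 0.00794, adjusted p = 0.0152) at day 7. The exact permutation test was 2-sided, its smallest p with 5 against 5 libraries is 0.00794, and p was adjusted over the 21 tests of 7 pairs on 3 days.

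Subunits VIIa and VIII show the same arrangement of a muscle form, Cox7a1 and Cox8b, and a broad form, Cox7a2 and Cox8a. Cox7a1 had 454, 544, 575, 402 and 444 CPM in MI hearts of day 2, against 526, 482, 838, 485 and 676 CPM in sham hearts. At day 4 Cox7a1 had 215, 209, 225, 213 and 131 CPM in MI hearts, against 264, 366, 303, 345 and 302 CPM in sham hearts. At day 7 Cox7a1 lay between 152 and 269 CPM, with a median of 192 CPM, in MI hearts, against 401, 369.9, 525, 376 and 272 CPM in sham hearts. The groups overlapped at day 2 only, and Cox7a1 was lower on each day, with log2 fold changes of -0.41 (edgeR adjusted p = 0.0405, SE 0.15), -0.85 (edgeR adjusted p = 0.00021, SE 0.15) and -1.07 (edgeR adjusted p = 0.000281, SE 0.18). The day 2 call was lost on leaving out any of 5 of the 10 libraries of that day, with values between -0.49 and -0.26.

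Cox7a2 had 486, 446, 477, 393 and 468 CPM in MI hearts at day 2, against 357, 336, 569.8, 363 and 523 CPM in sham hearts. At day 4 Cox7a2 had 374, 329.6, 382, 433 and 248 CPM in MI hearts, against 343, 438, 311, 381 and 343 CPM in sham hearts. At day 7 Cox7a2 had 533, 325, 217, 335 and 421 CPM in MI hearts, against 426, 393, 641, 415 and 359 CPM in sham hearts. The groups overlapped widely, and the log2 fold changes -0.02 (edgeR adjusted p = 0.934, SE 0.14), -0.22 (edgeR adjusted p = 0.222, SE 0.15) and -0.48 (edgeR adjusted p = 0.0837, SE 0.22) were not called. The log2 ratio of Cox7a1 to Cox7a2 counts was -0.10, 0.29, 0.27, 0.03 and -0.08 in MI hearts of day 2, against 0.56, 0.52, 0.56, 0.42 and 0.37 in sham hearts. At day 4 that ratio was -0.80, -0.66, -0.77, -1.02 and -0.92 in MI hearts, against -0.38, -0.26, -0.03, -0.14 and -0.18 in sham hearts. At day 7 it was -1.08, -0.76, -0.51, -0.82 and -0.65 in MI hearts, against -0.09, -0.09, -0.29, -0.14 and -0.40 in sham hearts. The ratio separated the groups on each day, with differences in mean log2 ratio of -0.40 (exact permutation p = 0.00794, adjusted p = 0.0152), -0.63 (exact permutation p = 0.00794, adjusted p = 0.0152) and -0.56 (exact permutation p = 0.00794, adjusted p = 0.0152).

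Cox8b had 322, 368, 381, 283 and 338 CPM in MI hearts of day 2, against 334, 403, 577, 332 and 459.9 CPM in sham hearts. At day 4 Cox8b had 163, 153, 168, 166 and 111 CPM in MI hearts, against 211, 267, 238, 254 and 205 CPM in sham hearts. At day 7 Cox8b had 223, 153, 163, 178 and 229 CPM in MI hearts, against 278, 249, 365, 251 and 189 CPM in sham hearts. The groups were apart at day 4 only, with log2 fold changes of -0.41 (edgeR adjusted p = 0.0264, SE 0.14), -0.80 (edgeR adjusted p = 7.7e-05, SE 0.12) and -0.69 (edgeR adjusted p = 0.00365, SE 0.17). Without any of 4 of the 10 libraries of day 2 its call there was lost, with values between -0.49 and -0.27. Its partner Cox8a had 172, 176, 138, 142 and 164 CPM in MI hearts of day 2, against 133, 137, 177, 142 and 150.5 CPM in sham hearts. At day 4 Cox8a had 132, 109.9, 118, 147 and 106 CPM in MI hearts, against 91.1, 102, 109, 89.0 and 86.8 CPM in sham hearts. At day 7 Cox8a had 107, 107, 81.7, 103 and 122 CPM in MI hearts, against 114, 111, 143, 105 and 86.7 CPM in sham hearts. Of the 5 MI libraries of day 4, 4 were above all sham libraries, yet none of the log2 fold changes, 0.00 (edgeR adjusted p = 0.997, SE 0.09), 0.18 (edgeR adjusted p = 0.136, SE 0.10) and -0.30 (edgeR adjusted p = 0.07, SE 0.13), was called. The log2 ratio of Cox8b to Cox8a was 0.31, 0.48, 0.51, 0.18 and 0.06 in MI hearts of day 4, against 1.21, 1.39, 1.12, 1.51 and 1.24 in sham hearts, with no overlap. The difference in that ratio was -0.39 (exact permutation p = 0.0238, adjusted p = 0.0385) at day 2, -0.99 (exact permutation p = 0.00794, adjusted p = 0.0152) at day 4 and -0.39 (exact permutation p = 0.00794, adjusted p = 0.0152) at day 7. The day 2 call was lost without any of 8 of the 10 libraries, with differences between -0.48 and -0.33. Without the 7 libraries that held lung or skeletal muscle transcripts, the day 7 difference was -0.21 (exact permutation, adjusted p = 0.191). So few libraries were then left at day 7 that this test could not pass any pair, and its p cannot decide the question. In the same libraries the day 7 difference was -1.54 for Cox6a2 to Cox6a1 and -0.47 for Cox7a1 to Cox7a2, also not called.

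**Figure D3:**
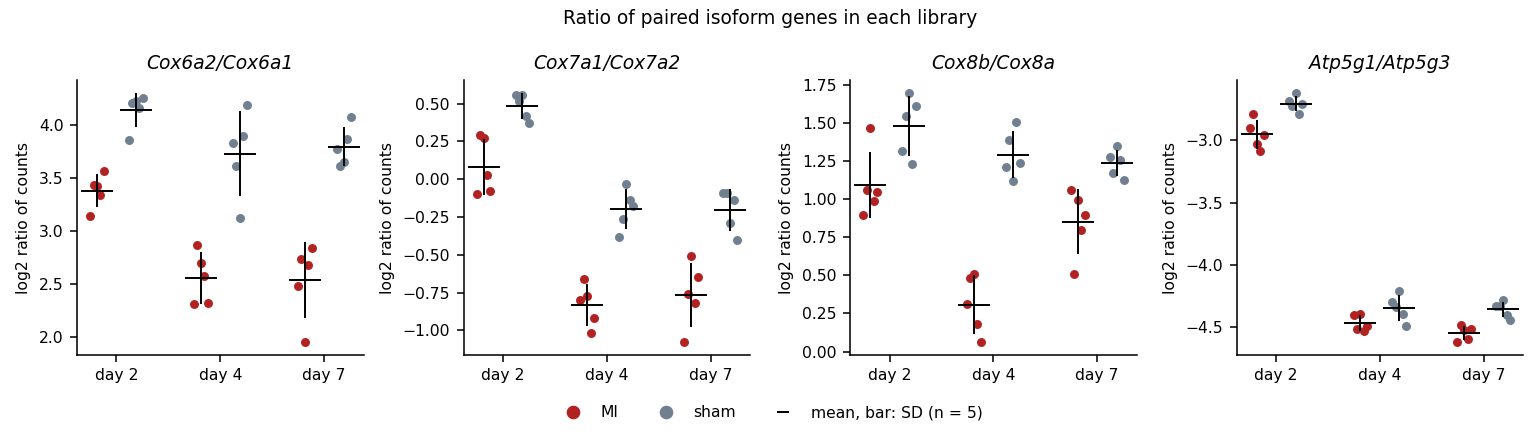
Log2 ratio of counts of paired isoform genes in each library, MI left of sham at days 2, 4 and 7; points are libraries, lines the mean and bars the SD of 5. The muscle-to-broad ratios Cox6a2/Cox6a1 and Cox7a1/Cox7a2 are lower in every MI library on every day, and the level of Atp5g1/Atp5g3 steps between day 2 and the later days in both groups.

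The rare isoforms were counted at a few CPM. Cox4i2, known as the isoform of lung and of oxygen-sensing cells, had 6.07, 7.87, 6.15, 5.26 and 6.80 CPM in MI hearts of day 2, against 9.24, 8.44, 8.54, 7.88 and 6.79 CPM in sham hearts. At day 4 Cox4i2 had 6.53, 4.98, 5.74, 6.47 and 6.50 CPM in MI hearts, against 8.69, 6.13, 3.89, 7.74 and 6.33 CPM in sham hearts. At day 7 Cox4i2 had 5.80, 6.64, 5.20, 7.06 and 7.55 CPM in MI hearts, against 5.31, 10.4, 8.47, 6.53 and 4.72 CPM in sham hearts. The groups overlapped on each day, and the day 2 log2 fold change of -0.44 (edgeR adjusted p = 0.0124, SE 0.13) was called while those of day 4, -0.30 (edgeR adjusted p = 0.207, SE 0.20), and day 7, -0.33 (edgeR adjusted p = 0.195, SE 0.21), were not. Markers of pericytes moved with it at day 2, where 4 of 7 were called lower and 0 higher. Their sums were then 883 ± 93.9 CPM in MI hearts and 1389 ± 64.5 CPM in sham hearts. Of the 7, 4 were also called lower at day 4, where Cox4i2 was not called. At day 7, 3 were called lower and 3 higher. The part of these markers in the Cox4i2 value was not tested. The ratio of Cox4i2 to Cox4i1 differed by -0.15 (exact permutation p = 0.333, adjusted p = 0.389), 0.43 (exact permutation p = 0.0873, adjusted p = 0.115) and 0.34 (exact permutation p = 0.222, adjusted p = 0.275) at days 2, 4 and 7, none of them called.

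Cox6b2, the testis form of subunit VIb in mammals, had 2.06, 2.42, 1.27, 2.06 and 0.838 CPM in MI hearts of day 2, against 0.622, 1.83, 1.88, 2.32 and 2.64 CPM in sham hearts. At day 4 Cox6b2 had 1.53, 1.22, 1.60, 1.67 and 1.21 CPM in MI hearts, against 3.81, 2.58, 2.71, 1.91 and 1.78 CPM in sham hearts. At day 7 Cox6b2 had 3.41, 2.80, 2.89, 2.10 and 2.70 CPM in MI hearts, against 1.74, 1.79, 3.08, 2.89 and 1.40 CPM in sham hearts. All MI libraries of day 4 lay under all sham libraries, and the log2 fold changes were -0.18 (edgeR adjusted p = 0.677, SE 0.33), -0.99 (edgeR adjusted p = 0.0039, SE 0.25) and 0.15 (edgeR adjusted p = 0.639, SE 0.26). The general form Cox6b1 had 889.6, 908, 911, 804 and 933 CPM in MI hearts of day 2, against 837, 803, 1163, 853 and 1009.9 CPM in sham hearts. At day 4 Cox6b1 had 576, 578, 578, 643 and 423 CPM in MI hearts, against 698, 765, 602, 701 and 648 CPM in sham hearts. At day 7 Cox6b1 had 728, 529.8, 521, 519 and 729 CPM in MI hearts, against 794, 684, 1024, 715 and 648 CPM in sham hearts. Its groups overlapped on each day, with log2 fold changes of -0.16 (edgeR adjusted p = 0.227, SE 0.11), -0.47 (edgeR adjusted p = 0.0049, SE 0.12) and -0.54 (edgeR adjusted p = 0.0099, SE 0.16). The ratio of Cox6b2 to Cox6b1 was higher in MI hearts at day 7, with a difference of 0.74 (exact permutation p = 0.0238, adjusted p = 0.0385), and differed by 0.01 (exact permutation p = 0.952, adjusted p = 0.952) and -0.47 (exact permutation p = 0.0635, adjusted p = 0.0889) at days 2 and 4. The day 7 call was lost without any of 5 of the 10 libraries, with differences between 0.66 and 0.88.

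Cox7a2l had 199.97, 176, 177, 237 and 145 CPM in MI hearts of day 4. Sham hearts of that day had 172, 202, 163, 185 and 172 CPM, and the groups overlapped. Cox7a2l was called lower at day 2, with a change on the log2 scale of -0.30 (edgeR adjusted p = 0.0287, SE 0.10). On that day MI hearts averaged 156 ± 20.1 CPM and sham hearts 179.5 ± 22.4 CPM (SD, n = 5 each). That call was lost without any of 4 of the 10 libraries, with values between -0.34 and -0.23. Its log2 fold changes at days 4 and 7 were -0.11 (edgeR adjusted p = 0.46, SE 0.12) and -0.16 (edgeR adjusted p = 0.401, SE 0.16). Mean CPM at day 4, which lacks the TMM factors, pointed the other way, at 187 in MI hearts and 179 in sham hearts.

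Promoter sequences are shown for 3 of these genes, one that was lowest on every day, one muscle isoform and the one gene called higher, because nuclear genes of the chain are textbook targets of the factor NRF1. Each is the window of 250 bases before to 50 bases after the start in RefSeq on GRCm38.p6, read 5′ to 3′ on the strand of the gene. Sdha lies on the minus strand at chr13:74350191-74350490, Cox8b on the minus strand at chr7:140900397-140900696 and Cox6a1 on the minus strand at chr5:115348909-115349208. Capitals mark the searched motifs, on either strand: NRF1 as GCGCANGCG, ERR as TNAAGGTCA, YY1 as AANATGGCG, SP1 as GGGCGG and the CCAAT box as CCAAT.
Sdha: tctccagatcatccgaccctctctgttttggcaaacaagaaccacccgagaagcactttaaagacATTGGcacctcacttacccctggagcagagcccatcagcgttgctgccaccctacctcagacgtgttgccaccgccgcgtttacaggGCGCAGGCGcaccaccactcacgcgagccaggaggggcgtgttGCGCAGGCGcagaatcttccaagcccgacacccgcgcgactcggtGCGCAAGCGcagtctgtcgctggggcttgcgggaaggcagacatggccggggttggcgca
Cox8b: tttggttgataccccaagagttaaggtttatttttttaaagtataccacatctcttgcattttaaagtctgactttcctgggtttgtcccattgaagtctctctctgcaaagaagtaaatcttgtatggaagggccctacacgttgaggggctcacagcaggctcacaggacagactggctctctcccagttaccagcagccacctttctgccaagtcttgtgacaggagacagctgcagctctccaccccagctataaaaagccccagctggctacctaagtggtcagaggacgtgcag
Cox6a1: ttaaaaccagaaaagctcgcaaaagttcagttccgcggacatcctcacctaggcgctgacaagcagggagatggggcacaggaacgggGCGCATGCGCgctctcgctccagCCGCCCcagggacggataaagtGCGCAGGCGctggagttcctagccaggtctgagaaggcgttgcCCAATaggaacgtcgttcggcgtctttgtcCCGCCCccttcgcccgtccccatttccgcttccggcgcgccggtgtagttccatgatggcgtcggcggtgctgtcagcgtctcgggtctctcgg
The Sdha window held 3 NRF1 motifs and 1 CCAAT box, the Cox6a1 window held 3 NRF1 matches, of which a pair shares 8 bases, with 2 SP1 motifs and 1 CCAAT box, and in the Cox8b window none of these letters were found. No other marked motifs share bases in these windows. Promoters were matched for 35 of the genes, 38 in all. The NRF1 motif was in 13 of the 38, or 34.2%, against 6.25% of all 32851 promoters in the table. The other shares were 5.26% against 1.28% for ERR, 7.89% against 2.38% for YY1, 34.2% against 35.7% for SP1 and 55.3% against 37.4% for the CCAAT box. These are matches of letters and no measure of binding.

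In complex V, the ATP synthase, 8, 14 and 13 of 17 genes were lower at days 2, 4 and 7, with medians of -0.24, -0.69 and -0.68. Atp5a1 encodes the alpha subunit of the F1 head. Its level was 3163, 3493, 3379, 3824 and 3646 CPM in MI hearts of day 2, against 4792, 4903, 3967, 4937 and 4166 CPM in sham hearts. At day 4 Atp5a1 had 2418, 3306, 2942, 2825 and 2729.96 CPM in MI hearts, against 5272, 5073, 4667, 5348 and 5114 CPM in sham hearts. At day 7 Atp5a1 had 1955, 2778, 2606, 2537 and 2787 CPM in MI hearts, against 4663, 4189.5, 4247, 4859.9 and 4960.1 CPM in sham hearts. No libraries overlapped on any day, and the log2 fold changes were -0.47 (edgeR adjusted p = 0.0014, SE 0.10), -1.02 (edgeR adjusted p = 4.12e-06, SE 0.11) and -1.05 (edgeR adjusted p = 1.85e-05, SE 0.13). Atp5b, the beta subunit where ATP is formed, had 4198, 4671, 4512, 5025 and 5098 CPM in MI hearts of day 2, against 5812, 6479.5, 5721, 6356 and 5523 CPM in sham hearts. At day 4 Atp5b had 3527, 4644, 4082, 4219 and 3854 CPM in MI hearts, against 7142, 6739.7, 5741, 6966 and 6649 CPM in sham hearts. At day 7 Atp5b had 3095, 3954, 3312, 3843 and 4219 CPM in MI hearts, against 6458, 5751, 6499.8, 6605 and 6634 CPM in sham hearts. Its groups were apart as well, with log2 fold changes of -0.44 (edgeR adjusted p = 0.00196, SE 0.10), -0.89 (edgeR adjusted p = 2.09e-05, SE 0.12) and -0.99 (edgeR adjusted p = 2.26e-05, SE 0.12).

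Subunit c forms the rotating ring in the membrane, and 3 genes, Atp5g1, Atp5g2 and Atp5g3, encode the same mature protein with different import sequences. Atp5g3 had 1497, 1435, 1583, 1479 and 1592 CPM in MI hearts of day 2, against 1464, 1484, 1700.4, 1539 and 1616 CPM in sham hearts. At day 4 Atp5g3 had 989, 1178, 1090.1, 1176 and 916 CPM in MI hearts, against 1519, 1781, 1316, 1709 and 1581 CPM in sham hearts. At day 7 Atp5g3 had 1100.3, 971, 978, 896 and 1218 CPM in MI hearts, against 1465, 1451, 1698, 1534 and 1432 CPM in sham hearts. The groups overlapped at day 2 and were apart at days 4 and 7, with log2 fold changes of -0.13 (edgeR adjusted p = 0.22, SE 0.09), -0.74 (edgeR adjusted p = 0.000132, SE 0.12) and -0.75 (edgeR adjusted p = 0.000121, SE 0.12). Atp5g1 had 201, 207, 194, 173 and 205 CPM in MI hearts of day 2, against 227, 223, 276, 222 and 247 CPM in sham hearts. At day 4 Atp5g1 had 46.8, 51.7, 52.0, 50.8 and 40.8 CPM in MI hearts, against 77.2, 87.7, 70.9, 81.5 and 70.5 CPM in sham hearts. At day 7 Atp5g1 had 44.7, 43.5, 42.6, 37.2 and 53.5 CPM in MI hearts, against 73.0, 71.9, 87.2, 72.6 and 65.7 CPM in sham hearts. Atp5g1 did not overlap on any day, with log2 fold changes of -0.38 (edgeR adjusted p = 0.00174, SE 0.08), -0.86 (edgeR adjusted p = 6.8e-06, SE 0.10) and -0.94 (edgeR adjusted p = 1.46e-05, SE 0.11).

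Atp5g2 was counted at a few CPM, 2.06, 2.26, 1.59, 1.78 and 1.86 in MI hearts of day 2, against 2.04, 1.98, 2.56, 1.47 and 2.38 in sham hearts. At day 4 Atp5g2 had 1.63, 1.32, 1.69, 1.08 and 1.21 CPM in MI hearts, against 3.18, 0.967, 1.65, 1.71 and 1.78 CPM in sham hearts. At day 7 Atp5g2 had 1.48, 1.97, 1.49, 1.43 and 1.62 CPM in MI hearts, against 1.65, 1.46, 1.87, 1.13 and 0.510 CPM in sham hearts. The groups overlapped, and the log2 fold changes of -0.21 (edgeR adjusted p = 0.415, SE 0.20), -0.60 (edgeR adjusted p = 0.108, SE 0.30) and 0.05 (edgeR adjusted p = 0.894, SE 0.30) were not called. The ratio of Atp5g1 to Atp5g3 was lower in MI hearts, with differences of -0.24 (exact permutation p = 0.00794, adjusted p = 0.0152) at day 2 and -0.19 (exact permutation p = 0.00794, adjusted p = 0.0152) at day 7, and the difference was -0.12 (exact permutation p = 0.0397, adjusted p = 0.0595) at day 4. The ratio of Atp5g2 to Atp5g3 differed by -0.07 (exact permutation p = 0.659, adjusted p = 0.692) and 0.23 (exact permutation p = 0.563, adjusted p = 0.623) at days 2 and 4, and was higher in MI hearts with a difference of 0.92 (exact permutation p = 0.00794, adjusted p = 0.0152) at day 7. That last value was 0.22 and not called once counts of near-copies, pseudogenes almost equal in sequence, were added to their genes.

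Of the small genes of the enzyme, Atp5e and Atp5mpl were called on no day and Atp5l at day 4 only. Atp5e, the epsilon subunit of the central stalk, had log2 fold changes of 0.03 (edgeR adjusted p = 0.906, SE 0.17), -0.30 (edgeR adjusted p = 0.174, SE 0.18) and -0.03 (edgeR adjusted p = 0.916, SE 0.21). Atp5mpl, a small proteolipid of the enzyme, had 376, 338, 381, 289 and 341 CPM in MI hearts of day 2, against 260.4, 228, 409, 256 and 366 CPM in sham hearts, with overlap and a change on the log2 scale of 0.09 (edgeR adjusted p = 0.665, SE 0.15). At day 4 its log2 fold change was -0.22 (edgeR adjusted p = 0.292, SE 0.17) and at day 7 -0.02 (edgeR adjusted p = 0.956, SE 0.22). Atp5l, subunit g of the membrane part, had 3.91, 4.99, 3.29, 3.91 and 2.51 CPM in MI hearts of day 2, against 2.66, 2.89, 4.18, 2.78 and 4.50 CPM in sham hearts, with overlap and a change on the log2 scale of 0.05 (edgeR adjusted p = 0.868, SE 0.21). At day 4 Atp5l was lower, with a change on the log2 scale of -0.62 (edgeR adjusted p = 0.0447, SE 0.25), a call lost on leaving out any of 7 of the 10 libraries, and at day 7 its value was -0.32 (edgeR adjusted p = 0.332, SE 0.27).

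The difference of the MI effect between days was tested for each gene in a fit of all 30 libraries. Day 2 libraries carry another run identifier, so in differences from day 2, day and run cannot be told apart. Of the counts of Atp5g1 and its near-copies, Atp5g1 took 19.3 to 21.0% at day 2 and 4.12 to 7.87% later. Between days 4 and 2, 5 of the 47 genes had a more negative effect at day 4, where 2.29% of 15537 genes did. They were Uqcrc1 at -0.53 (edgeR adjusted p = 0.0315, SE 0.15), Uqcrfs1 at -0.53 (edgeR adjusted p = 0.0187, SE 0.13), Atp5a1 at -0.54 (edgeR adjusted p = 0.034, SE 0.15), Atp5g1 at -0.47 (edgeR adjusted p = 0.0406, SE 0.14) and Atp5g3 at -0.61 (edgeR adjusted p = 0.0147, SE 0.15). Between days 7 and 2 there were 16, all more negative at day 7, where 9.11% of all genes were. Uqcrc1 had the lowest of these, -0.73 (edgeR adjusted p = 0.000717, SE 0.15), and Sdha, Sdhb, Sdhc, Cyc1, Uqcrc2, Uqcrfs1, Cox5a, Cox6a2, Atp5a1, Atp5b, Atp5c1, Atp5d, Atp5f1, Atp5g1 and Atp5g3 were the others. None of the 47 genes differed between days 7 and 4 by edgeR or by DESeq2, where 1.02% of all genes were called, and at an unadjusted p under 0.05 there was 1 lower and 1 higher. The count of 5 rested on single libraries. It was 2 without MI library 5 of day 2, sham library 2 or 4 of day 4, or MI library 1 or 5 of day 4, and 3 without sham library 5 or MI library 4 of day 2. It was 13 without sham library 3 and 11 without MI library 2 of day 4, and 9 and 8 without MI libraries 3 and 5 of day 7.

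Transcripts of heart muscle structural genes moved with the result at days 4 and 7. All 10 cardiomyocyte structural genes of a list with Actc1, Myl2, Tnnt2 and Ttn passed the count filter, and 5, 8 and 7 of them were lower in MI hearts at days 2, 4 and 7, with 1 higher at day 2. Their summed level was 51780.05 ± 3099 CPM in MI hearts and 54665 ± 1925 CPM in sham hearts at day 2, with a range of 48144 to 56269.7 CPM in MI hearts and 51604 to 56801 CPM in sham hearts. At day 4 the sums ranged from 41067 to 49525 CPM in MI hearts and from 53979 to 66799 CPM in sham hearts, and at day 7 from 39448 to 46845 CPM in MI hearts and from 54979 to 59908 CPM in sham hearts. MI hearts held 94.7%, 72.7% and 74.4% of the sham sum of structural genes, beside 85.7%, 66.7% and 65.1% for the genes of complexes II to V. Per 1000 structural counts, the respiratory genes had 615 ± 49.7 counts in MI hearts and 678 ± 48.3 in sham hearts at day 2. At day 4 they had 565 ± 42.7 in MI hearts and 617 ± 42.7 in sham hearts, and at day 7 561 ± 63.0 in MI hearts and 639.7 ± 43.0 in sham hearts (SD, n = 5 each). Macrophage markers were called higher for 4, 5 and 5 of 5 genes and fibroblast markers for 1, 3 and 5 of 5, with 1 fibroblast marker lower at days 2 and 4; their part in the fall of the respiratory genes was not tested.

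Some markers of fast skeletal muscle and brown fat, tissues that also make the muscle isoforms Cox6a2, Cox7a1 and Cox8b, differed too. Of 5 fast muscle markers only Tnnt3 had enough counts to test on each day. It was called higher in MI hearts, with log2 fold changes of 3.52 (edgeR adjusted p = 7.11e-08, SE 0.23), 4.20 (edgeR adjusted p = 3.72e-07, SE 0.33) and 6.82 (edgeR adjusted p = 0.0042, SE 1.47) at days 2, 4 and 7. The myosin genes Myh1 and Myh4 stayed at or under 0.377 CPM in all groups but MI hearts of day 7, and were at 0 in all 5 MI libraries of day 2. In MI hearts the summed muscle markers ranged from 9.05 to 14.3, 12.8 to 25.4 and 29.7 to 1385 CPM. In sham hearts they ranged from 1.22 to 2.16, 1.06 to 3.53 and 1.38 to 3.19 CPM. The 1385 CPM came from MI library 4 of day 7, beside 29.7 to 48.7 CPM in the other MI libraries of that day. Tnnt3 took 8.23 to 13.2 CPM of the day 2 sums in MI hearts. At day 2 Mylpf ranged from 0.569 to 0.955 CPM in MI hearts and from 0.266 to 0.850 CPM in sham hearts. Actn3 ranged from 0 to 0.546 CPM in MI hearts and from 0.176 to 0.463 CPM in sham hearts. Both also overlapped at day 4. Of the brown fat markers, 1 of 3 tested was higher at day 2, and 1 and 2 of 4 were lower at days 4 and 7, with none called the other way. Cidea alone was at 32.8 to 67.4 CPM in MI hearts of day 2, against 24.2 to 33.0 CPM in sham hearts. The brown fat sums lay between 44.1 and 76.2 CPM in MI hearts, against at most 37.7 CPM in sham hearts, at day 2. They ranged from 38.6 to 92.6 and 42.2 to 125 CPM in MI hearts, against 42.8 to 272 and 46.8 to 169 CPM in sham hearts, at days 4 and 7. Ucp1, the defining gene of brown fat, was at 0 in 4 of 5 MI libraries and 5 of 5 sham libraries of day 2, and in 1 of 5 MI libraries and 0 of 5 sham libraries at days 4 and 7. The part of these tissues in the values of the muscle isoforms was not tested.

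The 10 structural genes did not move alike. Their edgeR log2 fold changes ran from -0.94 (Ttn) to 0.31 (Tnnc1) at day 2. At day 4 they ran from -1.06 (Myl2 and Tnni3) to -0.24 (Tnnc1), and at day 7 from -1.14 (Tnni3) to -0.22 (Tnnc1). When libraries were scaled by these 10 genes, the median of all genes moved up by 0.17, 0.63 and 0.62 on the log2 scale at days 2, 4 and 7. On that scale 4, 5 and 11 of the 47 genes were called lower and 1, 6 and 6 higher, with medians of -0.07, 0.00 and -0.04. Over all genes 10.3%, 3.29% and 4.85% were called lower and 33.8%, 70.1% and 68.5% higher. Sdha, Sdhc, Atp5a1 and Atp5b were lower on every day on this scale too, Sdha at -0.44 (edgeR adjusted p = 0.00245, SE 0.10), -0.41 (edgeR adjusted p = 0.00154, SE 0.10) and -0.55 (edgeR adjusted p = 0.002, SE 0.13). Cox6a1 was higher on every day, at 0.55 (edgeR adjusted p = 0.000213, SE 0.10), 0.96 (edgeR adjusted p = 9.94e-05, SE 0.16) and 0.79 (edgeR adjusted p = 0.000417, SE 0.16). Atp5mpl, Cox7a2, Cox7a2l, Cox8a and Uqcr10 were called higher at day 4, and Atp5e, Atp5mpl, Cox6b2, Cox7a2l and Uqcr10 at day 7.

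**Figure D4:**
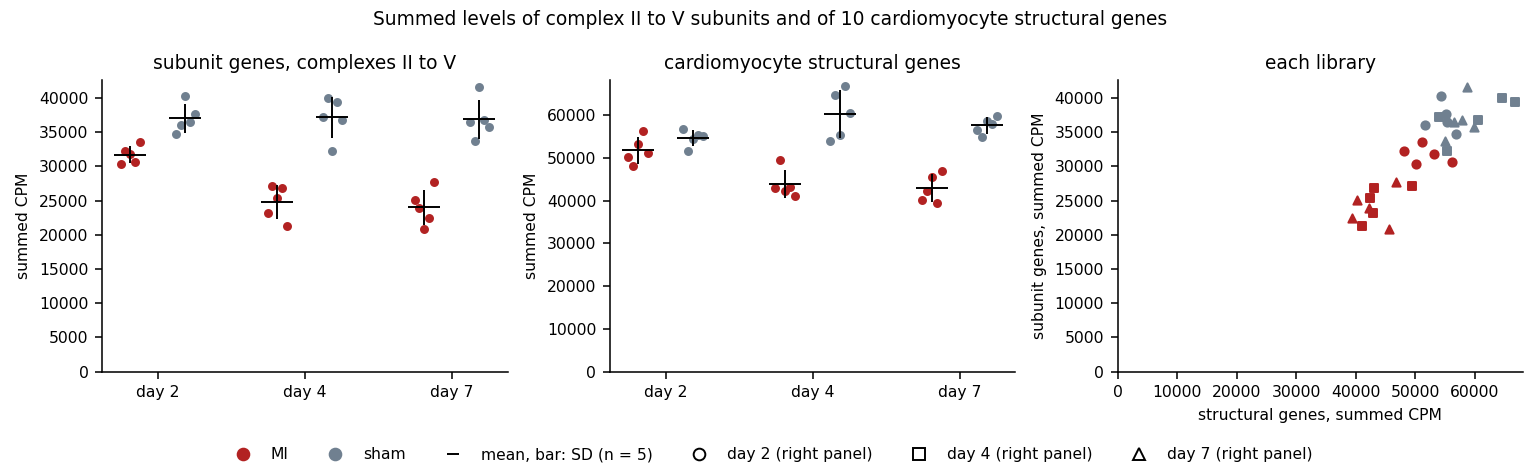
Summed CPM of the respiratory genes and of 10 cardiomyocyte structural genes, with MI left of sham at days 2, 4 and 7 (points are libraries, bars the SD of 5), and both sums against each other in every library. At days 4 and 7 MI libraries lie below sham libraries in both sums, and at day 2 only the sum of respiratory genes is apart.

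In 7 libraries there were transcripts of lung, by a sum of Sftpc and Scgb1a1 of 50 CPM or more, or of fast skeletal muscle, by Myh1 at 50 CPM or more. They were MI libraries 2 (lung) and 4 (muscle) of day 7, sham libraries 2 and 3 of day 4 and sham libraries 1, 2 and 3 of day 7 (lung). Summed lung markers lay between 0.796 and 2028 CPM in MI hearts of day 7, against 0.126 to 529 CPM in sham hearts. Without these libraries the day 4 counts were 39 lower and 1 higher, where 23.5% and 26.9% of all genes were called. At day 7, with 3 MI and 2 sham libraries left, 17 genes were lower and 1 was higher, where 14.8% and 18.6% of all genes were called, and the median was -0.45. Cox6a1 was the gene called higher on both days, at 0.54 (edgeR adjusted p = 0.00157, SE 0.12) and 0.57 (edgeR adjusted p = 0.0374, SE 0.18). Sdha kept its day 7 call at -1.46 (edgeR adjusted p = 0.005, SE 0.25), as did Uqcrc1 at -1.29 (edgeR adjusted p = 0.00617, SE 0.24) and Atp5a1 at -1.24 (edgeR adjusted p = 0.00872, SE 0.26). Among those no longer called at day 7 were Cox7a1 at -0.76 (edgeR adjusted p = 0.0582, SE 0.27), Cycs at -0.75 (edgeR adjusted p = 0.0962, SE 0.31), Sdhd at -0.57 (edgeR adjusted p = 0.112, SE 0.25), Cox4i1 at -0.45 (edgeR adjusted p = 0.239, SE 0.27), Cox5b at -0.30 (edgeR adjusted p = 0.236, SE 0.19) and Cox8b at -0.34 (edgeR adjusted p = 0.259, SE 0.22). The change of Atp5h was -0.04 (edgeR adjusted p = 0.876, SE 0.17) and that of Atp5k -0.02 (edgeR adjusted p = 0.953, SE 0.20) at day 7, against -0.45 and -0.46 with all libraries. At day 4 Atp5l lost its call at -0.57 (edgeR adjusted p = 0.104, SE 0.28) and Uqcr10 its only call at -0.31 (edgeR adjusted p = 0.0668, SE 0.13), and Cox4i2 and Atp5g2 were called lower at -0.53 (edgeR adjusted p = 0.0166, SE 0.17) and -0.87 (edgeR adjusted p = 0.0275, SE 0.31).

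Many of these short mRNAs have processed pseudogenes, copies made by reverse transcription, and reads that fit both may be counted on either. A search of the annotated transcripts found 55 near-copies of 21 of the genes, at 90% identity or more over at least 100 bases and 50% of either transcript; the part of that rule that counts coverage of the copy was added after the data were seen, and the part set earlier gave 28 near-copies of 12 genes. Over all libraries, the gene itself took 0.65% of the counts of gene and copies for Atp5l, 3.51% for Cox7c, 9.85% for Atp5h, 10.3% for Atp5g1 and 32.1% for Atp5g2. The share was 49.4% for Uqcrb, 54.4% for Cycs, 58.9% for Uqcr11, 65.6% for Atp5f1 and 70.6% for Cox7a2l. The levels of these genes are therefore uncertain.

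The coding sequences of 3 pairs are shown because they set which reads can be told apart. Cox7c, a small subunit of complex IV, lies on chromosome 13 and its copy Gm12338 on chromosome 11, and from start to stop codon, in capitals, 0 of 192 bases differ.
Cox7c: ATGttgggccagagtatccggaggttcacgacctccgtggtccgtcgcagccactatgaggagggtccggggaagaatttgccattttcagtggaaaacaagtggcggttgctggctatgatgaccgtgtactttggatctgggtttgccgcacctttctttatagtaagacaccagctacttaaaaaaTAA
Gm12338: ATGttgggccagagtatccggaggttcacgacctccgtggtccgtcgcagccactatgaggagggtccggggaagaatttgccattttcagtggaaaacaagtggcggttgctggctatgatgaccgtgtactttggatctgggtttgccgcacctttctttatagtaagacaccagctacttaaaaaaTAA
Cox6c, another small subunit of complex IV, lies on chromosome 15 and Cox6c2, annotated as a processed pseudogene, on chromosome 12; 7 of 231 bases differ, in capitals.
Cox6c: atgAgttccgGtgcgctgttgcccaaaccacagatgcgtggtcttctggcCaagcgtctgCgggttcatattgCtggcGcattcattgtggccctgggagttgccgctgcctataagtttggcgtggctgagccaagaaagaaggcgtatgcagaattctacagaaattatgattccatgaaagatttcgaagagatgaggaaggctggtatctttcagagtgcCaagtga
Cox6c2: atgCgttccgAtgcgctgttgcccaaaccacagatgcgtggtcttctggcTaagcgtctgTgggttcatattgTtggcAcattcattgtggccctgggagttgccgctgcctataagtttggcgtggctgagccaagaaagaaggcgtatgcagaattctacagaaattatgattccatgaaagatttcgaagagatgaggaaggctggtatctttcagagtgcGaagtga
Atp5g1 and its copy Gm10039 both lie on chromosome 11 and differ at 1 of 411 aligned bases, in capitals within the last 57.
Atp5g1: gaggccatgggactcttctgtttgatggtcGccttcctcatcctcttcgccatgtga
Gm10039: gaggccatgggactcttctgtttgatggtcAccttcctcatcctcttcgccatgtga
The identical pair cannot be told apart by a read that stays inside the coding region. Gm12338 was counted at 423 ± 72.8 CPM in MI hearts and 525 ± 53.8 CPM in sham hearts of day 4, where Cox7c itself averaged 12.6 ± 2.34 and 15.4 ± 2.38 CPM in MI and sham hearts (SD, n = 5 each). Cox6c2 was counted at 182 ± 19.6 CPM in MI hearts and 180.5 ± 41.2 CPM in sham hearts of day 2, but at 4.24 ± 0.602 CPM in MI hearts and 5.91 ± 0.681 CPM in sham hearts of day 4.

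The split of counts differed between day 2 and the later days in MI and sham hearts alike. Cox6c took 67.7 to 70.0% of its sum with copies at day 2 and 98.4 to 99.1% at days 4 and 7. Atp5g1 took 19.3 to 21.0% at day 2 and 4.12 to 7.87% later, and Atp5h, subunit d of the peripheral stalk, 16.7 to 19.9% and 3.87 to 6.74%. Within a day, shares of some genes also differed between MI and sham hearts. At day 4 Atp5g1 took 4.46 to 5.10% in MI hearts and 5.15 to 5.50% in sham hearts, with no overlap. Cycs took 42.1 to 46.9% in MI hearts and 46.4 to 49.0% in sham hearts of day 2. Of the 21 genes, 11 had higher shares at days 4 and 7 than at day 2 with no overlap of libraries, 3 had lower ones and 7 overlapped. MI library 3 of day 7 lay outside the other 9 libraries of its day for 9 of the 21 genes, where the other 29 libraries did so for 0 to 7. In it Atp5g1 took 7.87% beside 4.12 to 5.09%, Atp5g2 56.2% beside 7.55 to 31.6%, Atp5o 89.2% beside 93.3 to 95.4% and Cox7a2l 83.8% beside 61.7 to 72.4%. It also had the lowest summed level of the respiratory genes, 20794 CPM, and without it 31 genes were lower and 0 higher at day 7, with a median of -0.57. Gm12338 had log2 fold changes of -0.06, -0.49 and -0.54 at days 2, 4 and 7, beside -0.05, -0.47 and -0.31 for Cox7c, and Gm10039 had -0.32, -0.71 and -0.99, beside -0.38, -0.86 and -0.94 for Atp5g1. With the counts of all 55 copies added to the genes, 24, 39 and 34 genes were called at days 2, 4 and 7, and with the 28 copies of the earlier rule 24, 39 and 33. With all 55 added, Cox7c was called lower at day 7, at -0.53 (edgeR adjusted p = 0.0293, SE 0.19), against -0.31 (edgeR adjusted p = 0.197, SE 0.19) on its own. Atp5h was called lower at day 2, at -0.26 (edgeR adjusted p = 0.0413, SE 0.10), against -0.27 (edgeR adjusted p = 0.0583, SE 0.11) on its own. Atp5l was lower at day 4, at -0.43 (edgeR adjusted p = 0.00697, SE 0.12), and Atp5g2 had -0.49 (edgeR adjusted p = 0.0846, SE 0.23) at day 7.

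**Figure D5:**
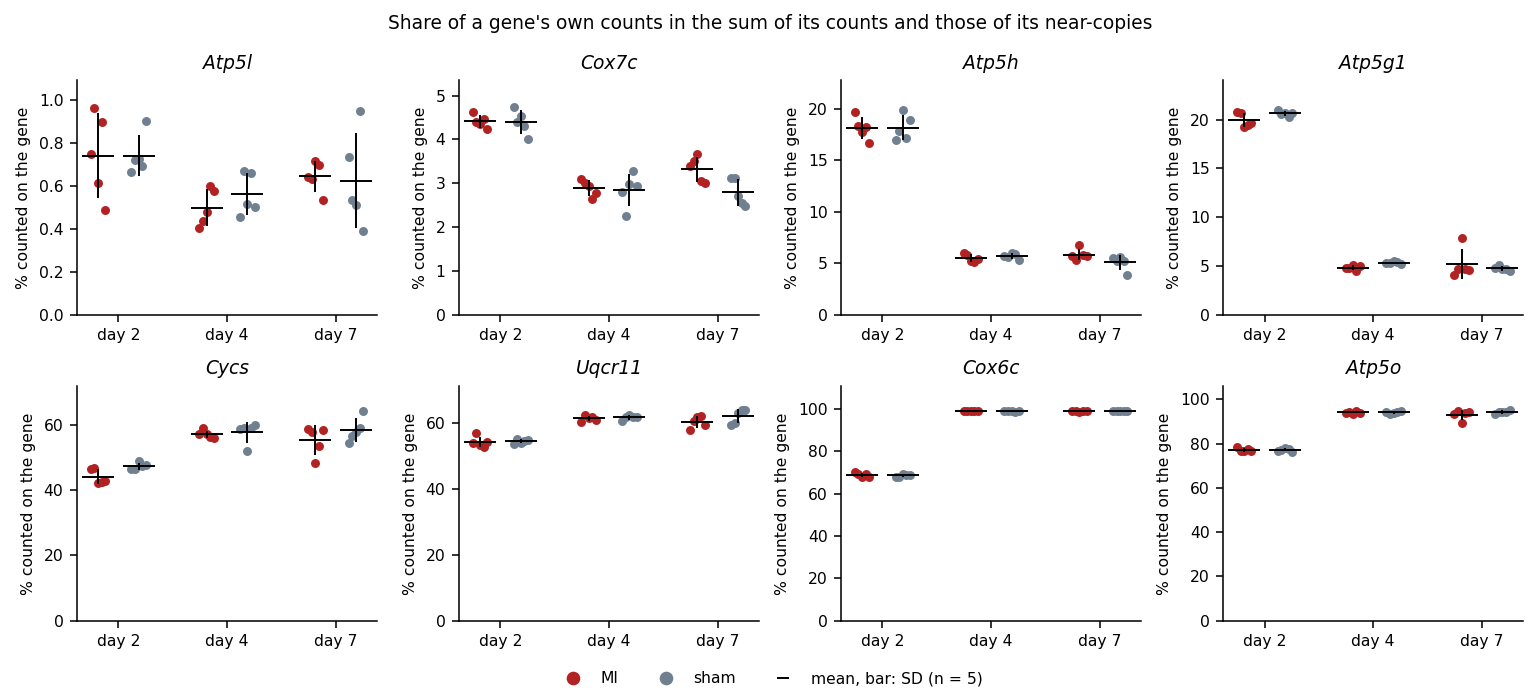
Percent of the counts of a gene and its near-copies that were counted on the gene itself, per library, with MI left of sham at days 2, 4 and 7; lines are means and bars the SD of 5. MI and sham libraries of a day mostly sit together. Among the exceptions is MI library 3 of day 7 for Atp5g1, Atp5o and Cycs. At day 4 all MI libraries lie below all sham libraries for Atp5g1. Atp5g1, Atp5h, Cox6c and Atp5o step between day 2 and the later days.

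Of 38 genes with symbols starting with Ndufa, Ndufb, Ndufc, Ndufs or Ndufv, most of which encode subunits of complex I, which oxidises NADH, 16, 35 and 34 were lower in MI hearts at days 2, 4 and 7 and 0, 0 and 1 higher, with medians of -0.24, -0.60 and -0.72. Ndufs1, a core iron-sulphur subunit, had the lowest values, -0.62 (edgeR adjusted p = 0.000208, SE 0.10), -1.10 (edgeR adjusted p = 5.45e-06, SE 0.13) and -1.16 (edgeR adjusted p = 1.61e-05, SE 0.14). The list also holds Ndufa4, now assigned to complex IV, and its relative Ndufa4l2, known for its induction under hypoxia, and Ndufa4l2 was the gene called higher at day 7, at 0.46 (edgeR adjusted p = 0.00416, SE 0.12). Of 38 tested genes for assembly and translation factors of complexes II to V, 18, 22 and 24 were lower at days 2, 4 and 7 and 2, 1 and 0 higher, with medians of -0.20, -0.42 and -0.54; over all genes tested 22.2%, 25.2% and 26.6% were called lower. Lrpprc, which stabilises mitochondrial mRNAs, was lower on each day, at -0.75 (edgeR adjusted p = 0.0015, SE 0.16), -1.01 (edgeR adjusted p = 5.35e-06, SE 0.12) and -0.98 (edgeR adjusted p = 0.000245, SE 0.17). Cox19, a copper-related factor of complex IV, was higher at days 2 and 4, at 0.80 (edgeR adjusted p = 2.13e-05, SE 0.10) and 0.41 (edgeR adjusted p = 0.00396, SE 0.10), and had 0.16 (edgeR adjusted p = 0.329, SE 0.13) at day 7. Cox18, an insertion factor, was higher at day 2, at 0.35 (edgeR adjusted p = 0.0224, SE 0.12).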

How the data were processed

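Counts per gene were deposited by the authors as raw whole-number counts, made with featureCounts on GRCm38 after base calling with bcl2fastq 2.20.0, per the submitters' processing notes; the aligner, the strand setting and the version of featureCounts were among the steps not given in the sources used here. Per the labels' protocols, reads of 150 bases were paired and libraries were directional. A GRCm38 annotation supplied symbols for 97.5% of identifiers, which held 99.9% of counts.

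MI and sham libraries of each day (5 against 5) were compared with edgeR 4.0.16 in R 4.3.3: filterByExpr (minimum count 10, minimum total 15), TMM factors, robust quasi-likelihood fits, Benjamini-Hochberg adjustment over all genes tested, threshold 0.05. SE is the absolute log2 fold change over the square root of F. Differences between days came from a fit of all 30 libraries. Isoform ratios used counts plus 0.5. Near-copies were found with blastn 2.17.0. DESeq2 1.42.0, other scalings, no filter, a replicate block and leaving out libraries were alternatives. The scripts were tested on simulated data. No pair of libraries held identical counts.

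Values were given per library for 12 subunits of known catalytic or core roles, for 7 isoform pairs and for the 3 lowest and 3 highest genes of each day, and genes called higher or not called at day 4 were named. The genes and all lists were chosen with earlier results of these data known. A count of 0 allows up to 3 counts.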

Additional observations from a re-analysis of the deposited data

Results flagged for a closer look

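Values of single libraries that lay far from the other 4 of their group, by Dixon's test at the 95% level, numbered 14 in 246 groups tested, and chance alone flags about 1 in 20. Among MI hearts of day 2, Cox5b was at 101 CPM in library 4, with the others at 118 to 121 CPM, and Cox7a2l at 121 CPM in the same library, with the others at 157 to 169 CPM. The log2 ratio of Cox8b to Cox8a was 1.47 in MI library 3 of day 2 and 0.90 to 1.06 in the others. Among MI hearts of day 4, Atp5l was at 2.84 CPM in library 4 beside 1.63 to 1.88 CPM, Cox7a1 at 131 CPM in library 5 beside 209 to 225 CPM, and Cox8b at 111 CPM in library 5 beside 153 to 168 CPM. The summed cardiomyocyte structural genes were at 49525 CPM in MI library 2 of day 4, beside 41067 to 43167 CPM.

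Among sham hearts of day 2, Cox6a1 was at 99.5 CPM in library 3 beside 82.6 to 87.1 CPM. The log2 ratio of Cox6a2 to Cox6a1 was 3.86 in sham library 1 of day 2 beside 4.16 to 4.25, and that of Atp5g2 to Atp5g3 was -9.997 in sham library 4 beside -9.52 to -9.35. Among sham hearts of day 7, library 3 had 641 CPM of Cox7a2 beside 359 to 426 CPM and 267 CPM of Cox7a2l beside 179.5 to 198 CPM. Sham library 2 of day 7 had 5751 CPM of Atp5b beside 6458 to 6634 CPM and a complex II sum of 3431 CPM beside 3793 to 3937 CPM. Sham libraries 2 and 3 of day 7 also carried lung transcripts, and the part of these in the values was not tested.

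The log2 effect of MI differed between days, by edgeR's test of the difference, in the named genes that follow. All are differences from day 2, in which day and run cannot be told apart. From day 2 to day 4 it changed by -0.53 in Uqcrc1 (adjusted p = 0.0315), -0.53 in Uqcrfs1 (adjusted p = 0.0187), -0.54 in Atp5a1 (adjusted p = 0.034), -0.47 in Atp5g1 (adjusted p = 0.0406) and -0.61 in Atp5g3 (adjusted p = 0.0147). From day 2 to day 7 it changed by -0.54 in Sdha, -0.57 in Sdhb, -0.54 in Sdhc, -0.73 in Uqcrc1, -0.56 in Uqcrfs1, -0.66 in Cyc1, -0.67 in Cox5a, -0.64 in Cox6a2, -0.56 in Atp5a1, -0.53 in Atp5b, -0.53 in Atp5g1 and -0.59 in Atp5g3, with adjusted p from 0.000717 in Uqcrc1 to 0.0265 in Sdha.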

How the results depend on the processing

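Scaling by the 10 structural genes left 5, 11 and 17 genes called at days 2, 4 and 7, where TMM gave 23, 39 and 33, and left 31, 22 and 24 of the 47 genes with a negative value, where TMM gave 42, 45 and 44. Among the genes given per library it turned 12 signs where the value was called on either scale. At day 4 these were Atp5l 0.03, Atp5mpl 0.43, Cox5b 0.05, Cox6b1 0.17, Cox7a2 0.43, Cox7a2l 0.53 and Sdhd 0.13. At day 7 they were Atp5mpl 0.60, Cox4i1 0.01, Cox5b 0.02, Cox6b1 0.08 and Cox7a2l 0.46. Further signs turned in values called on neither scale. Among them were Cox4i2 (0.35 and 0.28) at days 4 and 7, and Cox7a2 (0.15), Cox8a (0.33) and Atp5l (0.30) at day 7. Without the 7 libraries with lung or muscle transcripts 18 genes were called at day 7. The isoform differences then were -1.42 and -1.54 for Cox6a2/Cox6a1, -0.60 and -0.47 for Cox7a1/Cox7a2 and -1.01 and -0.21 for Cox8b/Cox8a at days 4 and 7, and at day 7 0.61 for Cox6b2/Cox6b1, -0.13 for Atp5g1/Atp5g3 and 1.37 for Atp5g2/Atp5g3; none passed, with fewer libraries. At day 7 too few libraries were left for the exact permutation test to pass any pair. With near-copies added by either rule Atp5g2/Atp5g3 was 0.22 at day 7. The difference of day 4 minus day 2 was called in 13 genes by DESeq2 and 2 with no filter on low counts, where edgeR gave 5. Otherwise the cause was not tested.

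Replicate numbers are shared between groups, and the main fits did not use them as pairs. The correlations of same-numbered libraries were -0.201 to 0.232, which cannot settle whether the numbers pair samples. With a replicate block 26, 39 and 31 genes were called at days 2, 4 and 7, and 4, 0 and 17 for day 4 minus 2, 7 minus 4 and 7 minus 2. A paired sign-flip test of the isoform ratios cannot go below 0.0625 with 5 pairs, so none passed under the block, at the same differences: -0.76, -1.18 and -1.26 for Cox6a2/Cox6a1, -0.40, -0.63 and -0.56 for Cox7a1/Cox7a2, -0.39, -0.99 and -0.39 for Cox8b/Cox8a, -0.24 at day 2 and -0.19 at day 7 for Atp5g1/Atp5g3, and at day 7 0.74 for Cox6b2/Cox6b1 and 0.92 for Atp5g2/Atp5g3.

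Leaving out 1 library gave 15 to 26, 35 to 41 and 30 to 37 called genes at days 2, 4 and 7, and 2 to 13, 0 to 0 and 14 to 21 for day 4 minus 2, 7 minus 4 and 7 minus 2. The isoform differences whose call changed ranged from 0.32 to 0.54 and from 0.24 to 0.54 for Cox4i2/Cox4i1 at days 4 and 7, from -0.57 to -0.32 and from 0.66 to 0.88 for Cox6b2/Cox6b1 at days 4 and 7, from -0.48 to -0.33 for Cox8b/Cox8a at day 2 and from -0.15 to -0.09 for Atp5g1/Atp5g3 at day 4. Depth limits Cox4i2 and Cox6b2, at a few CPM; for Atp5g2 and Atp5l most counts lay on near-copies.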
